A study of Mus musculus with 6 samples.

Results

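Cytosolic ribosomal protein genes encode the proteins of the ribosome that works in the cytoplasm. They were taken as every gene whose symbol begins with Rpl, Rps or Rplp followed by a number, with at most a short suffix such as a, x or l1, leaving out 5 pseudogene symbols ending in -ps and the 10 Rps6k kinases. The rule found 82 of the 33696 genes in the matrices, 51 of the large subunit and 31 of the small subunit, and no measured value entered it. Of these, 81 had at least 1 UMI (unique molecular identifier, 1 captured RNA molecule) and Rpl10l had 0, which allows a level of up to 0.0151 CPM (counts scaled to a library total of 1e+06) over all cells, counting error only. Together they held 5.32% of the UMIs of the cells kept, 10552364 of 198413716.

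Each ribosome carries 1 copy of nearly every ribosomal protein, so the genes are usually transcribed together and at high levels. Their messenger RNAs typically begin with a C followed by a run of pyrimidines, the TOP motif (terminal oligopyrimidine), through which the kinase mTOR and the RNA-binding protein LARP1 set their translation and stability. The assay counts messenger RNA and measures neither translation nor the number of ribosomes. Ribosomal protein genes have many processed pseudogenes and near-identical copies in the genome, so the counts of single members carry an unknown error from how reads were assigned.

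The libraries come from a study of how the ciliary muscle, which focuses the lens, bears on myopia. Mice received either tropicamide, a muscarinic receptor antagonist that relaxes this muscle, as 6 drops 10 min apart with a wait of 1 h, or saline drops 10 min apart, for which neither the number of drops nor a wait is given. Each group had 12 mice, and each library pooled 4 right eyes, so that there were 3 libraries per group. The tissue was the back of the eye with sclera, choroid and retina, and no source used here gives strain, genotype, sex or age. The p-values therefore measure the spread between pools of eyes within 1 experiment.

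The 6 libraries held 9472 to 13518 barcodes and 30761887 to 49477707 UMIs. After filters and removal of 5922 doublets 60096 cells remained. Pairs of libraries shared 22 to 64 cell barcodes. The cells formed 55 clusters, which were built without the ribosomal protein genes, so that their levels in a class were not used to define it. Comparisons used 9 classes, those for which each library had 30 cells or more. These were rod-like cells (49325, the dim-light photoreceptors), fibroblast-like cells (2173), retinal pigment epithelium-like cells (1449), endothelial-like cells (936), Müller glia-like cells (432, the radial glia of the retina), cone-like cells (415) and the unnamed clusters B1, B3 and B7. B1 (1448 cells) was shallow, at a median of 682 UMIs per cell, with rod genes leading its marker scores (1.79 against -0.23 for the next list). It met the score, gap and marker limits for rods. As a shallow cluster it also needed a rod marker among its 10 leading genes, had none, and so stayed unnamed. The deeper cluster B0, at a median of 1041.5 UMIs, also had none and was counted as rod-like. B3 (816 cells) had Smoc1, Serpine2 and Angpt1 among its leading genes, and B7 (487 cells) had Ptn, Edn3 and Wnt10a. The Müller glia-like class joins 2 clusters that stand far apart in depth and in ribosomal protein share. Its tropicamide results are given for each of them as well, and its comparisons with other classes are for the joined class only. The cone-like class also joins 2 unlike clusters, B12 (307 cells, median 7839 UMIs) and B26 (108 cells, median 1917.5 UMIs). All results of the cone-like class are for the joined class.

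The share of UMIs taken by the ribosomal protein genes differed several-fold between cell classes. It was 2.06% ± 0.149 in rod-like cells (SD, n = 6 libraries, as throughout this paragraph) and 11.7% ± 0.367 in fibroblast-like cells, the matrix-forming cells of sclera and choroid. Clusters B3 and B7 held 11.1% ± 0.653 and 10.6% ± 0.230, and endothelial-like cells, which line blood vessels, 8.85% ± 0.387. Every library of these 4 classes lay above every library of every retinal class. Retinal pigment epithelium-like cells lay between, at 5.52% ± 0.140. The other retinal classes were low, with 3.86% ± 1.02 in Müller glia-like cells, 3.17% ± 0.369 in cone-like cells, the daylight photoreceptors, and 1.89% ± 0.331 in cluster B1. With a stricter cell filter (1000 UMIs, 500 genes, 10% mitochondrial) B1 held 3.54%, but 1408 of its 1448 cells lay under that UMI limit. Averaging the percentages of single cells put Müller glia-like cells at 8.69%. The libraries of B1 (1.56% to 2.40%) overlapped those of rods (1.91% to 2.33%).

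**Figure D1:**
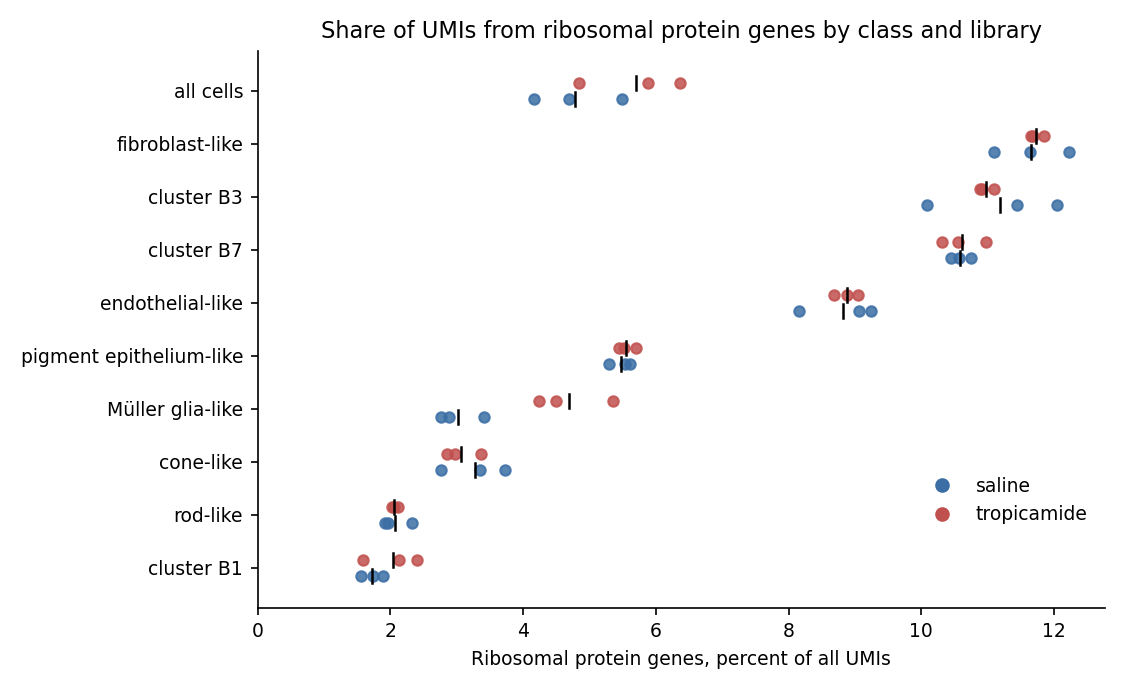
Percent of UMIs from ribosomal protein genes in each of the 9 classes and in all cells, 1 dot per library coloured by treatment, with black ticks for the group means. Rod-like cells sit near 2.06% and fibroblast-like cells near 11.7%, and the groups are apart only in Müller glia-like cells.

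Classes too small for a test extended this range. Cluster B20 (142 cells) held 18.0% over all its cells. Its leading genes included the lymphocyte genes Ccl5, Igkc, Gzma and Cd79a and the mast cell genes Mcpt4 and Tpsb2. Corneal or conjunctival epithelium-like cells (181) held 16.7% and cluster B34 (76 cells) 17.4%. Neurons of the inner retina were near cone-like cells, at 2.92% in rod bipolar-like, 3.29% in cone bipolar-like and 3.33% in amacrine-like cells. Erythroid-like cells, of the red blood cell lineage, varied most between libraries, from 4.09% to 20.5%.

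The balance of the subunits differed by a few percentage points between the 9 classes. Small subunit genes made up 42.9% ± 0.182 of ribosomal protein UMIs in rod-like cells and 43.2% ± 0.204 in fibroblast-like cells (SD, n = 6 libraries). The lowest of the 9 classes were cone-like cells (40.7% ± 0.597) and retinal pigment epithelium-like cells (41.0% ± 0.677), and the highest was cluster B1 (45.3% ± 0.965). All rod libraries (42.6% to 43.1%) lay above all cone libraries (39.8% to 41.5%).

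Depth per cell was examined because it differs between classes, from a median of 2175 UMIs in rod-like to 14563 in fibroblast-like cells. In rod-like cells of 500 to under 1000 UMIs the members held 1.73% of UMIs (range over 6 libraries 1.501% to 2.01%). The share was 1.97% (1.84% to 2.14%) from 1000 to under 2000 and 1.99% (1.88% to 2.19%) from 2000 to under 4000. It was 2.44% (2.23% to 2.92%) from 4000 to under 8000 UMIs, above every library of the bins from 1000 to under 4000. In the 180 rod-like cells of 8000 or more UMIs it was 2.23%, with libraries from 1.63% to 2.88%. No depth bin of rods approached the 9.25% of the lowest fibroblast-like library and bin.

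The share varied more with the mitochondrial share of a rod than with its depth. Rod-like cells with under 1% mitochondrial UMIs had a median library at 1.77% ribosomal protein UMIs (1.61% to 1.82%). At 1 to 2% the median was 2.42% (2.30% to 2.89%) and at 2 to 5% it was 3.31% (3.04% to 3.72%). It was 2.79% at 5 to 10% and 1.91% at 10% or more, where the median depth was 911 UMIs against 2907 in the peak bin. The libraries of the lowest 3 bins did not overlap one another.

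**Figure D2:**
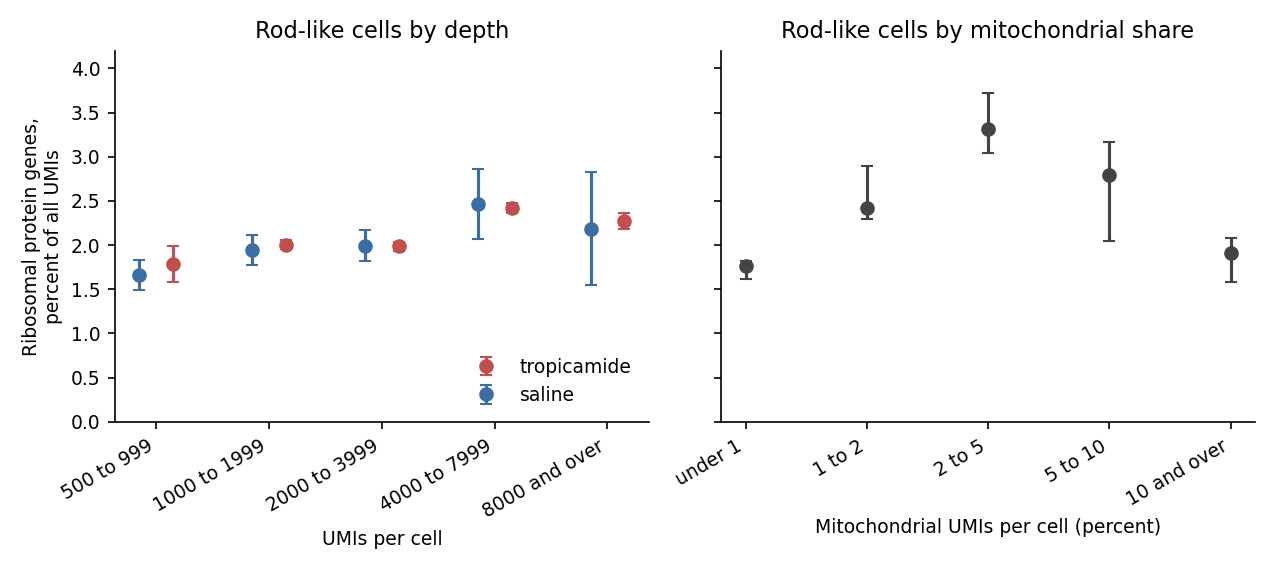
Percent of UMIs from ribosomal protein genes in rod-like cells. Left, mean ± SD of 3 libraries per treatment by bin of UMIs per cell, right, median of the 6 libraries with the lowest and highest by bin of mitochondrial share. The left curves stay between 1.67% and 2.47%, and the right one peaks at 3.31% in cells with 2 to 5% mitochondrial UMIs.

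The other classes filled fewer bins. Retinal pigment epithelium-like cells held 5.31%, 5.51% and 5.46% in the bins from 500, 1000 and 2000 UMIs. Endothelial-like cells held 8.66% from 4000 and 9.16% from 8000 UMIs, fibroblast-like cells 12.2% and 11.6%, and B3 12.2% and 10.6%, with overlapping libraries in each case but B3's. All cells in 1 sum went from 2.23% at 2000 to under 4000 UMIs to 10.1% at 8000 or more, where fibroblast-like cells make up 1860 of 4450 cells.

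Gene by gene, almost every ribosomal protein gene was higher outside the photoreceptors. Each class was compared with rod-like cells in edgeR's quasi-likelihood test with the library as a block and Benjamini-Hochberg adjustment over all genes. In fibroblast-like cells 79 of 80 tested members were higher and 1 was lower, against 40.3% of all genes called higher and 49.1% lower, with a median log2 difference of 2.76. Endothelial-like cells had 79 higher and 0 lower (37.9% and 46.8% of all genes), B3 had 79 and 1 (39% and 47%) and B7 had 79 and 1 (37.9% and 45.9%), with medians of 2.22, 2.54 and 2.57. Retinal pigment epithelium-like cells had 79 higher and 0 lower (30.9% and 46.4% of all genes, median 1.93). Müller glia-like cells had 74 higher and 3 lower (31.6% and 43.6%, median 0.88). Among cells of 2000 to under 8000 UMIs that number was 44 higher (29.6% of all genes, median 0.39), and with no low-count filter it was 55 (18.7%, median 0.52). The clusters joined in this class, B13 and B19, held 2.40% and 19.3% ribosomal protein UMIs over all their cells.

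Cone-like cells and cluster B1 were nearer to rods. In cone-like cells 51 of 80 members were higher and 5 lower, with 15.3% of all genes higher, 45.7% lower and a median of 0.37. The number higher was 75 with DESeq2 size factors (24% of all genes) and 33 among cells of 2000 to under 8000 UMIs (14.8%). With no low-count filter 14 were higher and 9 lower (6.68% and 31.3% of all genes, median 0.08). The clusters joined in the cone-like class, B12 and B26, held 2.77% and 6.18% ribosomal protein UMIs over all their cells. Their median mitochondrial shares were 3.7% and 11.77%. In cluster B1 1 was higher and 76 were lower, with 4.8% of all genes higher, 38.1% lower and a median of -0.74. Rods of all depths entered this comparison, while 1408 of the 1448 B1 cells had 500 to under 1000 UMIs. In that bin B1 held 1.77% ribosomal protein UMIs (1.56% to 2.01%) and rod-like cells 1.73% (1.501% to 2.01%), which overlapped. With DESeq2 size factors 9 were lower in B1, beside 7.38% of all genes. Without tropicamide library 3 the number lower was 53 (18.2% of all genes), and it was 71 to 76 with any other single library left out (34.3% to 35.6%). The scaling shifts all genes in these comparisons. The median over all genes lay at -0.53 to -0.22 with the standard scaling and at -0.18 to 0.30 with DESeq2 size factors. Relative to that median, the fibroblast-like members stood 2.76 against -0.24 and, with size factors, 3.25 against 0.24. In B1 they stood at -0.74 against -0.48 and at -0.11 against 0.12.

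**Figure D3:**
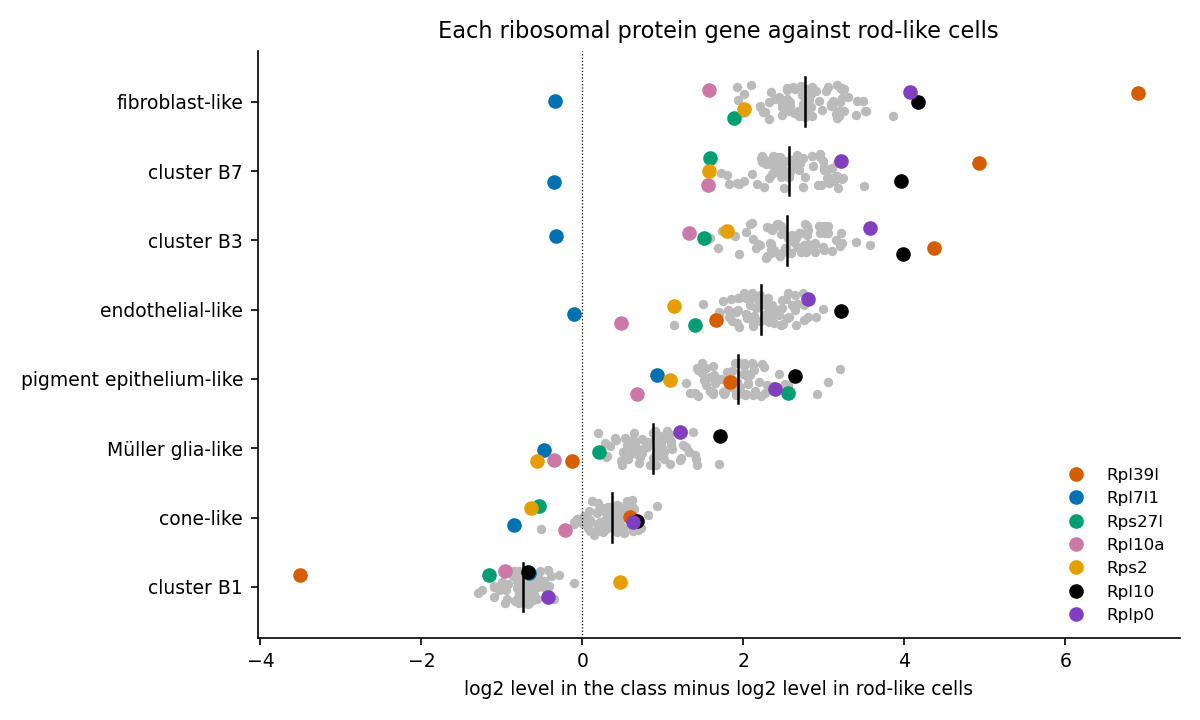
Log2 difference in level between each class and rod-like cells, 1 point per ribosomal protein gene, with black ticks for the medians and 7 genes in colour. Most points lie together around the median of a class, with Rpl39l far above in fibroblast-like cells, B3 and B7 (6.90, 4.37 and 4.93), and Rpl7l1 below the others there.

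The genes of the stalk, the flexible arm of the large subunit that recruits elongation factors, followed this order. Rplp0, its base, was at 148 ± 10.1 CPM in rod-like and 2023 ± 95.4 CPM in fibroblast-like cells (SD, n = 6 libraries), a log2 difference of 4.07 ± 0.13 (SE, edgeR adjusted p = 4.85e-38), higher in 6 of 6 libraries. Rplp1 was at 519 ± 50.8 CPM in rod-like, 876 ± 133 in cone-like, 1366 ± 85.2 in retinal pigment epithelium-like and 3601 ± 95.9 CPM in fibroblast-like cells. Rplp2 was at 195 ± 15.1 CPM in rod-like and 1069 ± 83.3 CPM in fibroblast-like cells. The stalk was thus lowest in rods and cluster B1 and highest in fibroblast-like cells and B3.

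Among core large subunit genes, Rpl10, whose protein joins late and completes the subunit, went from 113 ± 6.87 CPM in rod-like cells to 1660 ± 106 CPM in fibroblast-like and 1614 ± 152 CPM in B3. Its log2 differences from rods were 4.16 ± 0.11 (SE) in fibroblast-like cells, 3.21 ± 0.11 in endothelial-like, 2.64 ± 0.11 in retinal pigment epithelium-like and 1.71 ± 0.11 in Müller glia-like cells, all at edgeR adjusted p of at most 2.04e-21. Rpl10a, which forms the mobile L1 stalk at the tRNA exit, had the smallest difference from rods of the common genes in fibroblast-like, endothelial-like and pigment epithelium-like cells. It stood at 401 ± 21.2 CPM in rods, 520 ± 41.7 in endothelial-like cells and 978 ± 26.5 CPM in fibroblast-like cells. In Müller glia-like cells Rpl10a was 333 ± 79.7 CPM, a log2 difference from rods of -0.35 ± 0.10 (edgeR adjusted p = 0.00159) that turned to 0.22 with DESeq2 size factors.

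Among small subunit genes, the X-linked Rps4x went from 194 ± 19.96 CPM in rods to 2427 ± 92.0 CPM in B7 and 2293 ± 94.4 CPM in fibroblast-like cells. Rps6, the small subunit protein phosphorylated by the S6 kinases, ranged from 120 ± 35.8 CPM in B1 through 225 ± 14.6 in rods to 973 ± 78.2 CPM in endothelial-like cells. Rps27a, made as a fusion with ubiquitin, went from 421 ± 33.0 CPM in rods to 1904 ± 129 CPM in B3.

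A few genes made up different parts of the ribosomal protein pool in different classes. Rps2, a small subunit protein at the entry of the messenger RNA channel, was 6.31% ± 0.944 of ribosomal protein UMIs in cluster B1 (SD, n = 6 libraries), 2.92% ± 0.229 in rod-like cells and 1.12% ± 0.0823 in Müller glia-like cells. These 3 sets of libraries did not overlap. Rps2 was the 1 member called higher in B1 than in rods (1173 ± 146 against 601 ± 32.3 CPM, log2 difference 0.46 ± 0.11 SE, edgeR adjusted p = 4.04e-04), but that call was lost with no low-count filter, at 0.09.

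The pigment epithelium stood apart in another pair. Rpl41, a very short basic peptide of the large subunit, was 5.10% ± 0.158 of ribosomal protein UMIs in retinal pigment epithelium-like cells and between 1.73% and 2.65% in the other 8 classes. Rps15a was 3.26% ± 0.0988 there and between 1.37% and 1.62% elsewhere. In CPM, Rpl41 was 2813 ± 108 in pigment epithelium-like and 441 ± 28.7 in rod-like cells, and its log2 difference of 3.20 ± 0.12 (SE, edgeR adjusted p = 1.45e-32) was the largest of that class. Rps15a followed at 3.05 ± 0.12.

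Rps4x made up 2.29% ± 0.0570 of the pool in B7 and 0.939% ± 0.0607 in rods. Rpl10a was 1.95% ± 0.102 in rods and 0.587% ± 0.0361 in endothelial-like cells. Rps12 was 2.23% ± 0.0384 in fibroblast-like and 1.04% ± 0.179 in cone-like cells. For each of these 3 genes the libraries of the 2 named classes did not overlap.

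The rule also takes in copies with a narrower known expression. Rpl39l, a copy of Rpl39 known from the testis, had 1740 UMIs, of which 1495 lay in fibroblast-like cells. Its level there was 46.1 ± 8.26 CPM (37.4 to 58.9), with 13.5 ± 4.84 in B7, 9.49 ± 3.61 in B3 and 0.430 ± 0.193 CPM in rod-like cells (SD, n = 6 libraries). The log2 difference from rods was 6.90 ± 0.19 (SE) in fibroblast-like cells, at edgeR adjusted p = 3.22e-38. The common gene Rpl39 was at 1698 ± 168 CPM in fibroblast-like and 181 ± 15.9 CPM in rod-like cells. In endothelial-like cells, where Rpl39 was 963 ± 83.8 CPM, Rpl39l was 1.16 ± 1.36 CPM from 12 UMIs. Cluster B1 had 0 UMIs of Rpl39l, which allows up to 2.90 CPM.

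Rpl3l, the copy of Rpl3 known from heart and skeletal muscle, had 116 UMIs in all cells, with no more than 56 in any tested class. Rpl22l1, the copy of Rpl22, was highest in B3 at 631.5 ± 82.9 CPM and was 160 ± 10.9 CPM in rods. Rps27l was highest in retinal pigment epithelium-like cells at 286 ± 38.2 CPM, against 70.8 ± 4.41 in rods, whereas Rps27 was highest in B7 at 1924 ± 238 CPM. Rpl7l1, a relative of Rpl7, went against the common genes, at 50.5 ± 3.77 CPM in rods and 32.8 ± 5.98 CPM in fibroblast-like cells. Its log2 difference was -0.34 ± 0.11 (SE, edgeR adjusted p = 0.00353), but 0.15 with DESeq2 size factors. Rpl7 itself was at 262 ± 27.1 CPM in rods and 1384 ± 46.6 CPM in fibroblast-like cells.

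Sequence around the annotated start is shown for genes named above or below, since the TOP motif is defined there. Starts were taken from RefSeq on mouse build GRCm38.p6, which is not the build of the matrices, and 62 of the 82 members matched. Each window holds 15 bases before the start and 15 from it, 5′ to 3′ on the gene's strand. Capitals mark a run of at least 5 pyrimidines that begins with C at the annotated start.
Rps10 (chr17:27635230-27635259, minus strand): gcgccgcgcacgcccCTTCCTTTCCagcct
Rps6 (chr4:86857353-86857382, minus strand): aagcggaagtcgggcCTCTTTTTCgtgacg
Rpl28 (chr7:4792950-4792979, plus strand): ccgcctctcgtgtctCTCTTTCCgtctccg
Rps15a (chr7:118116133-118116162, minus strand): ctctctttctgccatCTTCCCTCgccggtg
Rplp2 (chr7:141447636-141447665, plus strand): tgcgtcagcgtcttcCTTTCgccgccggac
Rpl38 (chr11:114668565-114668594, plus strand): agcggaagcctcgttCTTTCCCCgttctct
Rplp0 (chr5:115559452-115559481, plus strand): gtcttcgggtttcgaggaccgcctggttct
Rps24 (chr14:24490663-24490692, plus strand): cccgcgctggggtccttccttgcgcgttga
Rps4x (chrX:102189377-102189406, minus strand): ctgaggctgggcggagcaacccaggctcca
Rpl39l (chr16:10170213-10170242, plus strand): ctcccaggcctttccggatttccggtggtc
Rpl7l1 (chr17:46782642-46782671, minus strand): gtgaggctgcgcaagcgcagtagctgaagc

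The first 6 windows carry the motif at the listed start. In Rps24 a pyrimidine run opens just before the listed start, so the definition misses it, and the other 4 windows have no such run at their start. A C opening at least 5 pyrimidines was found at 1 or more listed starts of 13 of 62 members (21.0%) and of 813 of 27025 genes in the table (3.01%). The letters CCGGAAG, a site type of the ETS factors, were found on either strand within 250 bases before to 50 after the start in 25 members (40.3%) and 9.93% of genes. The letters AAGATGGC, a site type of YY1, were found in 6 members (9.68%) and 3.19% of genes. These are matches of letters and were not linked to the levels.

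The genes that ran most like the members over the 54 sums of library and class are given as a description. Over 2780 other genes with at least 20 CPM in each class, the highest Pearson correlations with the members' summed log2 level were those of Eef1a1 (0.989) and Tpt1 (0.989). Fau (0.987) and Eef1b2 (0.984) followed, then Txn1 (0.963), Nme2 (0.959), Eef1g (0.957), Rack1 (0.955) and Ppib (0.951). Eef1a1, Eef1b2 and Eef1g are subunits of elongation factor 1, Rack1 sits on the small subunit, and Fau encodes a ribosomal protein under another symbol. Tpt1 was at 618 CPM in rod-like and 6253 CPM in fibroblast-like cells. The points share libraries and depth.

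Tropicamide was then compared with saline in each class, with edgeR on the summed counts and adjustment over all genes of the class. In Müller glia-like cells 31 of 79 tested members rose and 0 fell, while 2.01% of all genes tested changed in either direction and 1.21% rose. All 79 tested members had a log2 fold change above 0, with a median of 0.58 against -0.01 over all genes. The remaining 3 members were not tested there, Rpl10l with 0 UMIs, Rpl39l with 1 and Rpl3l with 3. For 72 of the 79 the groups were apart, against 18.6% of all genes, and 75 were under an unadjusted p of 0.05. DESeq2 called 52 higher, and 2 were called with the stricter cell filter. With 1 library left out 4 to 43 were called, with 4 and 6 without saline library 2 or 1, and 7 and 17 without tropicamide library 3 or 2. The 2.01% of all genes is that of the main fit, and the counts under other settings have no such share beside them. The risen members were 15 of the large and 16 of the small subunit.

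The share of UMIs showed the same groups. Ribosomal protein genes held 4.25%, 4.501% and 5.35% of Müller glia-like UMIs in the tropicamide libraries and 2.88%, 2.75% and 3.41% in the saline libraries. Every tropicamide library lay above every saline library, at a ratio of means of 1.56 and a difference of 1.68 percentage points. The difference was 0.793 points with the stricter cell filter, and 4.27 points when the percentages of single cells were averaged.

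Among small subunit genes, Rps10 was at 975, 962 and 1042 CPM after tropicamide and at 566, 523 and 616 CPM after saline. Its log2 fold change was 0.78 ± 0.14 (SE, n = 3 libraries per group, edgeR adjusted p = 0.00722). The groups did not overlap. Rps4x was at 571, 572 and 722 CPM against 285, 313 and 380 CPM (0.90 ± 0.16, edgeR adjusted p = 0.00722). Rps24, a protein needed to mature the RNA of the small subunit, was at 1031, 1071 and 1239 CPM against 560, 532 and 786 CPM (0.80 ± 0.16, edgeR adjusted p = 0.0104). Rps13 rose by 0.79 on the log2 scale. In each of these 4 genes the lowest tropicamide library lay above the highest saline library.

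Among large subunit genes, Rpl3, next to the peptide-forming centre, was at 552, 620 and 714 CPM after tropicamide and at 327, 278 and 380 CPM after saline (0.90 ± 0.16, edgeR adjusted p = 0.00722). Rplp1 of the stalk was at 1132, 1228 and 1465 CPM against 765, 641 and 798 CPM (0.76 ± 0.15, edgeR adjusted p = 0.0101), again without overlap. Rpl28 rose by 0.77. Among those that did not pass, Rplp0 and Rplp2 had log2 fold changes of 0.46 and 0.59 (adjusted p = 0.246 and 0.0794) and Rps6 0.51 (adjusted p = 0.137). The smallest fold changes were those of Rpl22l1 (0.14, adjusted p = 0.83) and Rpl7l1 (0.27, adjusted p = 0.81).

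**Figure D4:**
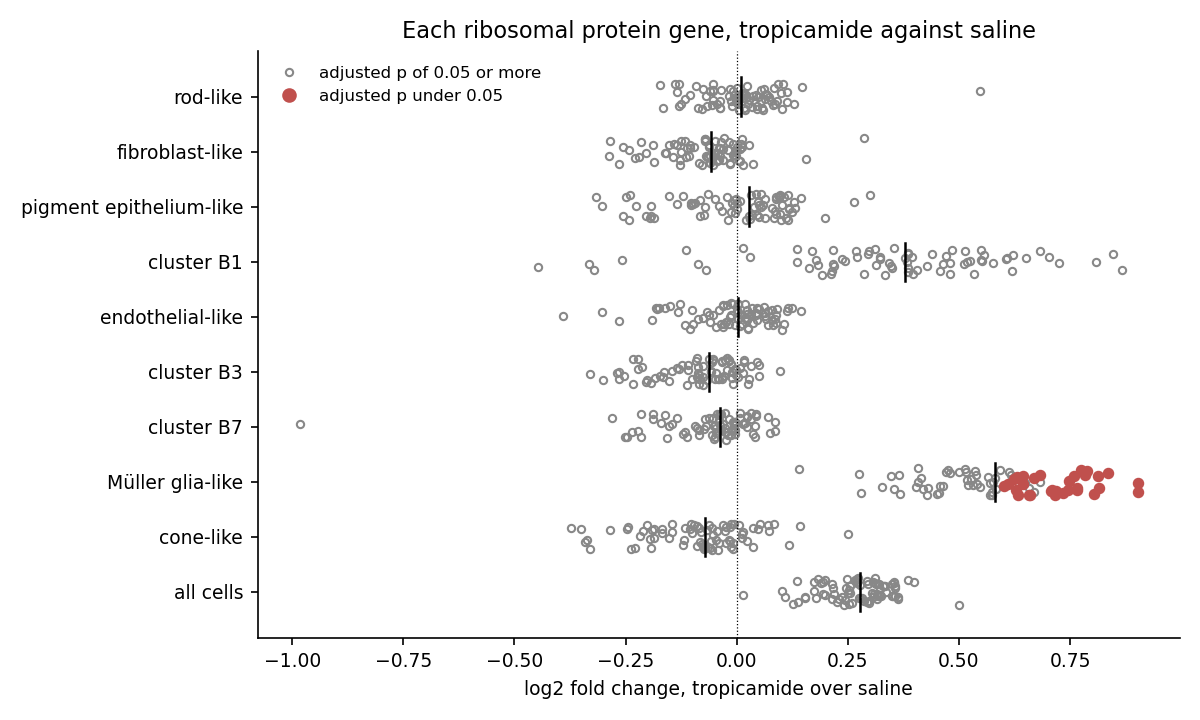
Log2 fold change, tropicamide over saline, of each tested ribosomal protein gene in each class, filled red where the edgeR adjusted p is under 0.05. The 31 red points are all in Müller glia-like cells, where the median is 0.58, and the medians of the other named classes lie between -0.07 and 0.03.

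The Müller glia-like class holds 2 clusters, and no member was called within either. Cluster B13 (275 cells, median 8221 UMIs, led by Rgs6, Slc1a3 and Sorcs1) held 2.41% to 2.72% ribosomal protein UMIs after tropicamide and 2.18% to 2.48% after saline. Cluster B19 (157 cells, median 1044 UMIs, led by Spc25, Crym and 2900052N01Rik) held 18.1% to 21.9% and 16.1% to 21.3%. Both pairs of ranges overlapped. Among its 10 leading genes B13 had 3 of the 7 Müller glia markers, Slc1a3, Gpr37 and Aqp4, and B19 had 1, Glul. The next best marker list of B19 was that of the lens, at a score of 2.35 against 2.96. B19 made up 44.8% to 54.2% of the class in the tropicamide libraries and 24.0% to 29.8% in the saline libraries, without overlap. Its median mitochondrial share was 8.10% to 10.0% in the tropicamide and 7.91% to 9.66% in the saline libraries. Across the class the tropicamide libraries had medians of 1396 to 3500 UMIs per cell and the saline libraries 5822 to 8357.

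Within B13, 0 of 79 members were called by edgeR, with 4 under an unadjusted p of 0.05, 62 above 0 and a median log2 fold change of 0.14. In 23 of the 79 all tropicamide libraries lay above all saline libraries in CPM and in 0 below, beside 8.68% of all genes above and 5.84% below. The lowest adjusted p was 0.436, that of Rpl3 (0.44 ± 0.17). Rps10 within B13 was at 537, 535 and 614 CPM after tropicamide and 428, 430 and 435 CPM after saline (0.34 ± 0.15, edgeR adjusted p = 0.483), groups that still did not overlap. Within B19, 0 of 77 were called, with an adjusted p of at least 0.946, 47 above 0 and a median of 0.06. There 4 lay above and 2 below without overlap (4.9% and 5.12% of all genes tested). Only 449 genes could be tested in B19, the 77 members among them, against 6613 in B13. In cells of 8000 or more UMIs the class held 2.39% to 2.82% after tropicamide and 2.11% to 2.39% after saline, which did not overlap but differed by 0.404 percentage points where the whole class differed by 1.68. In cells of 2000 UMIs or more 0 of 79 members were called, with 66 above 0 and a median of 0.17.

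**Figure D5:**
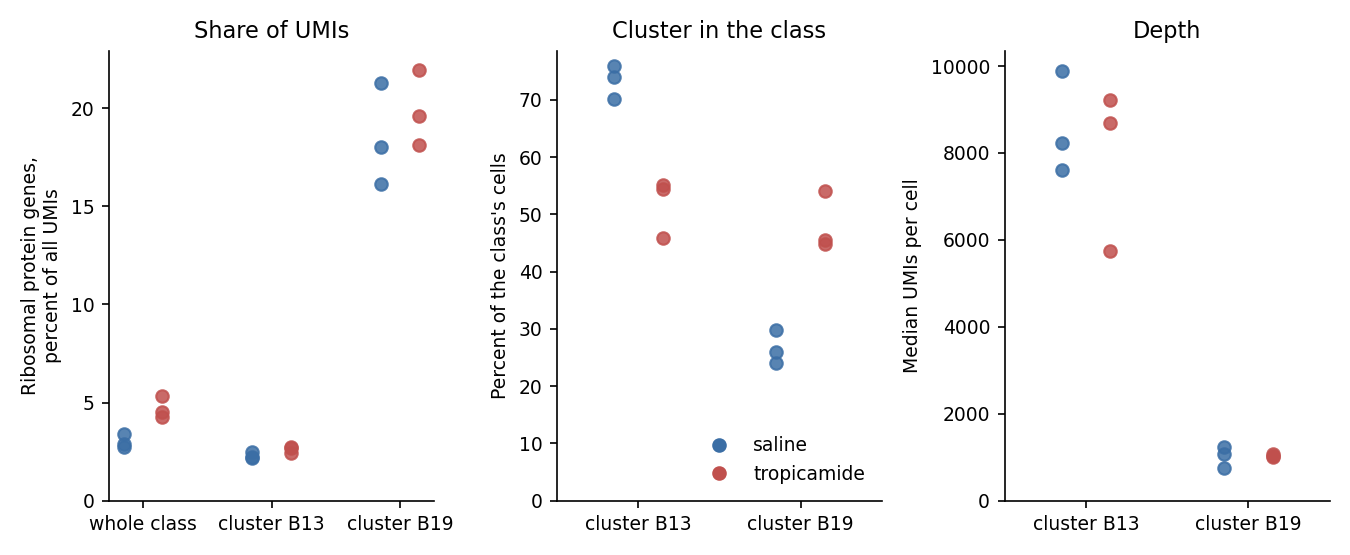
Müller glia-like cells by library and treatment, showing the percent of UMIs from ribosomal protein genes in the whole class and in its clusters B13 and B19, the percent of the class's cells in each cluster, and the median UMIs per cell. The groups are apart in the whole class (4.25% to 5.35% against 2.75% to 3.41%) and overlap within B13 and within B19.

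Markers of other cell types differed in the same libraries. All 8 rod markers were detected in the Müller glia-like class, summing to 2858 to 4149 CPM after tropicamide and 1364 to 2334 CPM after saline. The 6 pigment epithelium markers summed to 213 to 695 and 69.5 to 98.9 CPM, and the 8 fibroblast markers to 263 to 997 and 151 to 247 CPM, none of them at 0. The 8 endothelial markers went the other way, at 2220 to 2532 and 2745 to 3354 CPM. The 7 Müller glia markers summed to 12970.5 to 13569 and 13417 to 13920 CPM, which overlapped. The part of other cells' RNA in the rise was not tested. No member was called when the class was limited to B13, to B19, to cells under 2000 UMIs or to cells of 2000 UMIs or more.

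Related gene lists in the Müller glia-like class were counted in the same fit. Of 4 ribosomal proteins with other symbols 1 rose, Fau, from 532 ± 82.9 to 877 ± 97.0 CPM (SD, n = 3 libraries, log2 fold change 0.69, edgeR adjusted p = 0.0194), and Rpsa was at 0.57 (adjusted p = 0.16). Of 21 other translation genes of the TOP type 1 rose, Tpt1, from 1223 ± 210 to 1844 ± 110 CPM (0.56, adjusted p = 0.0399), while 20 lay above 0 and their median was 0.40. Of 9 snoRNA host genes, 12 tested ribosome biogenesis genes and 12 tested genes of mTOR and TOP control 0 passed, with medians of 0.45, 0.31 and -0.01. Of 52 tested mitochondrial ribosomal proteins 0 passed (median 0.22). Genes unrelated to the cytosolic ribosome rose too, 12 of 20 rod phototransduction genes (median 0.90) and 4 of 13 mitochondrially encoded genes (median 0.59).

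In rod-like cells, the class with the most cells and summed UMIs, 0 of 80 members were called by edgeR while 10.2% of all genes changed, 5.58% higher and 4.62% lower. Under an unadjusted p of 0.05 were 4, DESeq2 called 0, 44 lay above 0 and the median was 0.01. The member of smallest p was Rps27, a zinc-binding small subunit protein, at 266, 249 and 270 CPM after tropicamide and 277, 293 and 325 CPM after saline (-0.17 ± 0.06, edgeR adjusted p = 0.0878). Its groups did not overlap, as for 5 of the 80 members, all lower after tropicamide, against 31.8% of all genes. The share of UMIs was 2.05%, 2.02% and 2.12% after tropicamide and 1.96%, 1.91% and 2.33% after saline, so the third saline library was the highest of the 6 and the other two the lowest. Without that library edgeR called 20 of 81 members higher, at a median of 0.10, and 13.2% of all genes, 7.42% higher.

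The related lists in rods were mixed. Of the 21 other TOP-type genes 0 passed, with a median of 0.01. Of 9 snoRNA host genes 3 fell, of 32 ribosome biogenesis genes 4 fell, and of 78 mitochondrial ribosomal proteins 1 rose and 6 fell. Of 15 genes of mTOR and TOP control 1 rose. Of the lists unrelated to the cytosolic ribosome, 7 of 22 rod phototransduction genes rose and 0 fell, and 1 of 13 mitochondrially encoded genes rose. These counts are to be read beside the shares of all genes called higher and lower in rods, given above.

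In the other classes edgeR and DESeq2 called 0 members. Shares called, in brackets here and in the next paragraph, are of all genes at an adjusted p under 0.05. They are no background for the counts under an unadjusted p. Fibroblast-like cells had 80 tested members and a median of -0.06, with 12 above 0 and 5 under an unadjusted p of 0.05 (0% of all genes called). Rps27 was at 1495, 1429 and 1505 CPM after tropicamide and 1692, 1909 and 1495 CPM after saline there (-0.29 ± 0.11, edgeR adjusted p = 0.338), and the groups overlapped. Retinal pigment epithelium-like cells had a median of 0.03 with 43 of 79 above 0 and 8 under an unadjusted p of 0.05 (0.0439% called). In them Rpl38 was at 615, 536 and 582 CPM against 709, 664 and 713 CPM (-0.30 ± 0.10, adjusted p = 0.587), without overlap.

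Endothelial-like cells had a median of 0.0034 with 2 of 79 under an unadjusted p of 0.05 (0.0477% called), cone-like cells -0.07 with 0 of 79 (0.0286%), B3 -0.06 with 4 of 79 (0.022%) and B7 -0.04 with 7 of 80 (0.132%). In B7 Rpl39l was at 10.7, 6.45 and 11.3 CPM after tropicamide and 19.0, 16.4 and 17.4 CPM after saline, a log2 fold change of -0.98 ± 0.38 from 60 UMIs in all (edgeR adjusted p = 0.579). In fibroblast-like cells, which hold most of its UMIs, Rpl39l was not among the 3 members of smallest p.

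Separation of the groups without regard to a test gave no common direction in these classes. In CPM, 16 of 80 members of fibroblast-like cells had all tropicamide libraries above all saline libraries and 0 below, where 21.7% of all genes were separated in either direction. The direction there depends on the scaling, since the fitted fold changes, which use TMM scaling, had a median of -0.06 with 12 of 80 above 0. The numbers above and below were 12 and 10 of 79 in pigment epithelium-like cells (13.5% of all genes), 0 and 7 of 79 in endothelial-like cells (12.3%) and 1 and 3 of 79 in cone-like cells (9.71%). They were 7 and 2 of 75 in B1 (16.3%), 3 and 0 of 79 in B3 (14.6%), 7 and 6 of 80 in B7 (13.5%) and 0 and 0 of 81 in all cells (22.3%). By depth, the share of UMIs in all cells of 500 to under 1000 UMIs was 2.52% to 3.15% after tropicamide and 1.88% to 2.45% after saline. In B3 cells of 4000 to under 8000 UMIs it was 11.6% to 11.689% and 11.694% to 14.7%. These and the deepest Müller glia-like cells were the bins whose groups did not overlap.

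In cluster B1 most members lay above 0 and none was called by edgeR. Of its 75 tested members 68 lay above 0 with a median of 0.38, and 26 were under an unadjusted p of 0.05. At the adjusted threshold 0.704% of all genes were called, 0.528% higher and 0.176% lower. That share uses another threshold and is no background for the 26. Rps3a1, a small subunit protein, was at 333, 264 and 303 CPM after tropicamide and 215, 113 and 185 CPM after saline (0.87 ± 0.23, edgeR adjusted p = 0.0505), without overlap. DESeq2 put 9 members under an unadjusted p of 0.05, and edgeR called 4 without saline library 3. The libraries of B1 held 63039 to 343483 UMIs, and the lower of these was the smallest library sum of the 9 classes. Of the 10 mitochondrially encoded genes tested in B1 3 rose, with all 10 above 0. Some marker lists of other cells also differed in the same libraries without overlap, in both directions. The 5 erythroid markers, all detected, summed to 127 to 154193 CPM after tropicamide and 17.6 to 46.6 CPM after saline, and the 7 Müller glia markers, all detected, to 144 to 222 and 56.5 to 88.2 CPM. Lower after tropicamide were the 6 rod bipolar markers, at 803 to 1094 and 1181 to 1363 CPM. So were the 5 astrocyte markers, at 358 to 372 and 411 to 500 CPM. The 6 pigment epithelium markers overlapped, at 238 to 455 and 60.5 to 309 CPM. The part of other cells' RNA in the difference was not tested.

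With all cells summed, 81 of 81 members with a UMI lay above 0 at a median of 0.28, and 0 were called by edgeR (0% of all genes called, 0 members under an unadjusted p of 0.05, 15 with DESeq2). The share of UMIs was 6.37%, 5.87% and 4.84% after tropicamide and 4.69%, 4.16% and 5.49% after saline, which overlapped. In this sum the mix of cells and the RNA per cell cannot be told apart. Fibroblast-like cells, high in these genes, numbered 325 to 536 in the tropicamide and 207 to 419 in the saline libraries. Cluster B3, also high in them, numbered 96 to 278 and 46 to 93, without overlap. Pigment epithelium-like cells, whose mean share of 5.52% was near the 5.24% of all cells, numbered 204 to 535 and 45 to 134, without overlap. All 6 pigment epithelium markers were detected and summed to 2138 to 4665 and 649 to 1265 CPM, and all 5 erythroid markers to 1461 to 4154 and 9.27 to 593 CPM. The part of these cells in the difference was not tested.

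Whether a class differed from rods in its response was tested on the per-library difference of log2 levels with limma. No member passed in any of the 8 classes, where 0% to 0.00814% of all genes did. In Müller glia-like cells 67 of 79 members were under an unadjusted p of 0.05, beside 858 of all 6596 genes tested. The median difference was 0.60 against -0.02 over all genes. Rpl3 had a difference of 0.82 ± 0.20 (SE, n = 3 libraries per group, limma adjusted p = 0.254). The next largest number of members was 6 of 75 in B1, beside 193 of all 3407 genes tested there, with a member median of 0.32.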

How the data were processed

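The deposited files are matrices of raw UMI counts, genes by barcodes, written by Cell Ranger 8.0.1 per the file headers. The genome build GRCm39 and the aligner STAR are named per the submitters' processing notes, and no source used here gives the annotation release or says whether intron reads were counted. The labels' extraction protocol is about bone and was set aside.

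Filters of 500 UMIs, 300 genes and 20% mitochondrial UMIs left 66018 of 66434 barcodes. For doublets, 2 artificial ones per barcode were simulated, each barcode was scored over its 50 nearest neighbours, and the highest 0.8% for every 1000 barcodes of a library were dropped. Counts scaled to 10000 per cell, 2000 variable genes without the members, 30 principal components and 20 neighbours gave Leiden clusters at resolution 1 in 2 rounds. Clusters were named from 26 marker lists at a score of at least 1, a gap of 0.5 to the next list and 3 detected markers (0.4 for rods in the first round), and 14 stayed unnamed. No other list could have more markers among a cluster's 10 leading genes. In the second round a cluster well under the median depth of its libraries also needed a marker of its list among those 10. That last limit left B1 unnamed. These limits were set after the clusters were seen. Free RNA was not removed.

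Counts were summed per library and class, and the pool of eyes is the replicate. Tropicamide was compared with saline, and each class with rods, with edgeR 4.0.16 (R 4.3.3, quasi-likelihood test, TMM scaling, filterByExpr, adjusted p under 0.05). CPM in the text use library totals without TMM. Differences between changes used limma 3.58.1 at a prior count of 2. The tests were checked on simulated data. Alternatives were DESeq2 1.42.0, other scaling, filters, depth ranges and left-out libraries, and single clusters of a class, added after seeing the data. Clustering used leidenalg 0.10.2 and igraph 0.11.9 under Python 3.11.15, figures matplotlib 3.10.9, and tables pandas 2.3.3 and numpy 2.4.6, with scipy 1.17.1.

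Named members were, per class, up to 8 called ones of smallest p in each direction or, with none called, the 3 of smallest p. Added to these were the 4 of largest and smallest difference from rods, the 6 whose share of member UMIs varied most, the 5 highest and 5 lowest over all cells, the copies and their common genes, the stalk genes, Rps6 and Rps27a. Some genes that the rule picks are named nowhere, as they are not reported here. The members, lists and this rule were chosen with earlier results of these data known. Levels were not divided by gene length, so levels of different genes are not ranked.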

Additional observations from a re-analysis of the deposited data

How the results depend on the processing

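Members called in Müller glia-like cells (31) numbered 52 with the DESeq2 test, 2 with a stricter cell filter, 0 in cells under 2000 UMIs, 0 in cells of 2000 UMIs or more, 0 in the largest and 0 in the second largest cluster, and 4 to 43 when 1 library was left out. Without saline library 1 there were 6, without saline library 2 there were 4, and without tropicamide library 2 or 3 there were 17 and 7. The replicate block gave 50. Same-numbered libraries did not deviate together in every pair (correlations of 0.0081, 0.019 and 0.016 in this class), so the numbers were not taken as pairs. In rod-like cells 1 member was lower in cells of 2000 UMIs or more, in the largest cluster and with no low-count filter, 2 in the second largest cluster, and 0 to 20 were called when 1 library was left out. In B1 1 was called with DESeq2 size factors, 1 with scaling without the members, and 0 to 4 when 1 library was left out. In all cells under 2000 UMIs 1 was called. Leaving out 1 library gave 0 calls in the other classes and in the differences from rods. The counts in this paragraph show how the calls of members moved. They are not set against the share of all genes called in each setting.

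Averaging per-cell percentages moved the member share to 12.3% in fibroblast-like, 11.0% in B7, 8.69% in Müller glia-like, 3.75% in cone-like and 3.05% in all cells, with a Müller glia-like difference between groups of 4.27 points. That difference was 0.793 with the stricter filter, which put the few B1 cells that passed it at 3.54%. Without doublet removal pigment epithelium-like cells held 5.13%. Without mitochondrially encoded genes in the denominator they held 5.68% and B7 10.9%. With 1 library left out the share stayed at 3.56% to 4.08% in Müller glia-like cells, the difference between their groups at 1.36 to 1.91 points and that of all cells at 0.577 to 1.34.

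Against rods, 9 members were lower in B1 with DESeq2 size factors. From 2000 to under 8000 UMIs 44 were higher in Müller glia-like and 33 in cone-like cells, the latter 14 with no filter. With 1 library left out the numbers were 70 to 76, 46 to 62 and, lower in B1, 53 to 76. Signs turned with DESeq2 size factors for Rpl7l1 in fibroblast-like cells (0.15), endothelial-like cells (0.32), B3 (0.17), B7 (0.11) and Müller glia-like cells (0.091), for Rpl27a (0.53), Rps12 (0.34) and Rpl37a (0.28) in B1, and for Rps2 (0.0014), Rpl10a (0.22) and Rpl39l (0.39) in Müller glia-like cells. With 1 library left out the difference ran from -0.17 to 0.18 for Rpl27a in B1 and from -0.15 to 0.046 for Rpl7l1 in endothelial-like cells, each above 0 only without tropicamide library 3, and from -3.47 to 0.24 for Rpl39l in Müller glia-like cells, which rests on 1 UMI (0.12 without saline library 1, 0.24 without saline library 3, 0.23 without tropicamide library 2 and 0.075 without tropicamide library 3). Rpl36 in rods under 2000 UMIs had a log2 fold change of 0.081. The cause was not tested for any of these. The other 417 values of the comparisons stayed within 1.5 times (counts) or 1 SD (shares), 1099 values of single genes kept their direction and side of the threshold, 68 lost their call and 13 gained one. Depth limits B1, at 63039 to 343483 UMIs per library, and the cone-like and Müller glia-like classes, at 415 and 432 cells.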
